A study of Mus musculus with 6 samples.

Results

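The genes described here are 10 parts of bone morphogenetic protein (BMP) signalling: the protease gene Bmp1, the ligand genes Bmp2 and Bmp4, the receptor genes Bmpr1a and Bmpr2, the antagonist genes Grem1 and Bambi, and the target genes Id1, Id2 and Id3. They were followed on every probe set whose platform annotation named exactly 1 of them, which gave 21 of the 45101 probe sets on the array and 10 of the 18193 genes it names singly. All 10 genes were bright enough to be tested, and 19 of the 21 probe sets lay above the brightness filter. The 2 below it were 1 of 3 for Bmp1 and 1 of 6 for Bmpr1a.

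The study followed mouse cells under reprogramming, the conversion of a differentiated cell towards a pluripotent stem cell by transcription factors. Embryonic fibroblasts of the B6CBAF1/J strain received OCT4, SOX2 and KLF4, with OCT4 either wild type, in the combination O(WT)SK, or in a version the labels call 5R, in O(5R)SK. What 5R stands for, and how the factors were delivered, is not given in the labels. The culture medium of all groups was that of embryonic stem cells, with fetal bovine serum and leukaemia inhibitory factor, and total RNA was taken with Trizol on day 3, 5 or 7. Each combination and day is represented by 1 Affymetrix array of biotin-labelled RNA, 6 arrays in all. Fibroblasts without the factors were not analysed here, so every change is between days of reprogramming or between the OCT4 versions. Nothing in the labels says that the arrays came from separate cultures, so the p-values measure only the spread between these arrays, and their small number limits the precision.

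BMPs are secreted dimers of the TGF-beta superfamily that bind paired type I and type II serine/threonine kinase receptors. The type I receptor then phosphorylates SMAD proteins, which enter the nucleus with SMAD4 and switch on genes such as the Id genes. Secreted antagonists bind the ligands outside the cell, and decoy receptors act at the membrane. In mouse fibroblasts on the way to pluripotency, BMP signalling is known for its part in the early change towards an epithelial state, and in embryonic stem cells for sustaining Id genes alongside leukaemia inhibitory factor.

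The deposited intensities had a trimmed mean, which leaves out the outer 2% of values at each end, of 500 on every array, as scaling to that value gives. The median intensity was 59.0 to 61.4 on 5 arrays and 68.0 on the O(5R)SK array of day 7. That array also had the lowest maximum, 34285 against 40353 to 47606 on the others. All 10 fibroblast markers on the array were above the filter, with a summed intensity of 103790 to 139910. Of the 6 endothelial markers 3 were below it, among them Tie1, which read 0.792 to 2.73. Of the 3 above it, Tek read 418 to 598, Kdr 59.2 to 123 and Emcn 59.1 to 106. The 6 summed to 596, 672 and 641 in O(WT)SK on days 3, 5 and 7 and to 680, 798 and 870 in O(5R)SK. The 8 macrophage markers were all above the filter. Their summed intensity in O(WT)SK was 8515, 4793 and 3490 on days 3, 5 and 7, and in O(5R)SK 7978, 4308 and 2967. Of the day 3 sums, Lyz2 alone gave 6294 in O(WT)SK and 5824 in O(5R)SK. Fcgr1, dim at 27.7 to 61.3, was higher on day 7 than on day 3 in both. The epithelial markers summed to 488, 593 and 834 in O(WT)SK and to 531, 660 and 1356 in O(5R)SK. Of the day 7 sums, Cdh1 alone gave 252 in O(WT)SK and 665 in O(5R)SK. The smooth muscle markers summed to 76927, 73766 and 68554 in O(WT)SK and to 77257, 69208 and 50424 in O(5R)SK. In RNA from a mixed culture, fewer cells of a type and less RNA per cell cannot be told apart.

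The promoter sequences of 6 of the 10 genes were matched in the RefSeq table of the GRCm38.p6 mouse assembly, as the 250 bases before the annotated start. Those of Grem1, Id2 and Id3 are shown. Grem1 differed most with day among these genes, and the brightest probe sets of Id2 and Id3 took different courses. A second Id2 probe set of similar brightness was, like Id3, highest on day 5 in both combinations. Neither Id2 nor Id3 was called in the comparisons below. Each sequence is written 5′ to 3′ on the gene's own strand. Capitals mark GGCGCC, the core of GC-rich elements that BMP-activated SMADs are known to bind and its own reverse complement, and CCAAT, a common promoter element, on either strand (ATTGG on the reverse). The Grem1 window is chr2:113758649-113758898 on the minus strand, the Id2 window chr12:25096093-25096342 on the minus strand, and the Id3 window chr4:136143572-136143821 on the plus strand.
Grem1: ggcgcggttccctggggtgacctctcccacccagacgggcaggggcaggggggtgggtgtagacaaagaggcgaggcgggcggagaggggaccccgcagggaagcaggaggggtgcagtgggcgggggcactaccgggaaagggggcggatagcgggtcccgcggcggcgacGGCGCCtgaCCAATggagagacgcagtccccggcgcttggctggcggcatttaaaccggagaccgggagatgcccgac
Id2: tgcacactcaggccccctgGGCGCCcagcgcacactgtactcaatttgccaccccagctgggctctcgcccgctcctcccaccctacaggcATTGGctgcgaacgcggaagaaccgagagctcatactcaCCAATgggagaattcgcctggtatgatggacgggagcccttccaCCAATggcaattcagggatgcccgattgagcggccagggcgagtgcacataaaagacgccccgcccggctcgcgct
Id3: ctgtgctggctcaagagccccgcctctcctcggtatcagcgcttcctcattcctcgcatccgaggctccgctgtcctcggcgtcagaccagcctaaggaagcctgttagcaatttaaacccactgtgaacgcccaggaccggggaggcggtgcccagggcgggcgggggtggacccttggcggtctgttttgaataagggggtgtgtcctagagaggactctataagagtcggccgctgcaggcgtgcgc

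In the Grem1 window GGCGCC began 78 bases and CCAAT 69 bases before the start. The Id2 window held GGCGCC at 231 bases and CCAAT at 159, 120 and 76 bases, and the Id3 window held neither. GGCGCC was present in 4 of the 6 windows of these genes (Bmpr1a, Bmpr2, Grem1 and Id2) and in 9.59% of all 32851 promoter windows of that length. CCAAT was present in 3 of the 6 (Bmpr1a, Grem1 and Id2) and in 33.8% of all windows. The third motif searched, TATAAA, was in 0 of the 6 and in 12.4% of all. The motifs do not overlap in these windows, and a match describes letters, not a bound site.

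Over the 4 days from day 3 to day 7, Grem1 rose and Bambi fell, and the other 8 genes did not pass the test. The comparison pooled both combinations (2 arrays per day) in a limma fit on log2(intensity + 16), with Benjamini-Hochberg adjustment over 12622 genes and a threshold of 0.05. Fold changes on this scale understate those of dim genes. The 2 genes called of 10 stand beside 10.2% of all genes tested, of which 6.52% were higher and 3.68% lower on day 7. At an unadjusted p under 0.05 there were 4 of the 10, against 30.6% of all genes. The median difference was 0.07 over the 10 genes and 0.03 over all genes, and 6 of the 10 differences were positive and 4 negative. The direction of the difference was the same in both combinations for 8 of the 10, all but Id2 and Id3, and for 69.7% of all genes.

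The call depended on having both arrays of days 3 and 7. When any 1 of those 4 arrays was left out, limma called 0 of the 10 and 0 of all genes. When either day 5 array was left out, Grem1 alone was called among the 10. The largest p so obtained for Grem1 was an adjusted p of 0.0987, and its log2 difference stayed between 1.24 and 1.49.

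**Figure D1:**
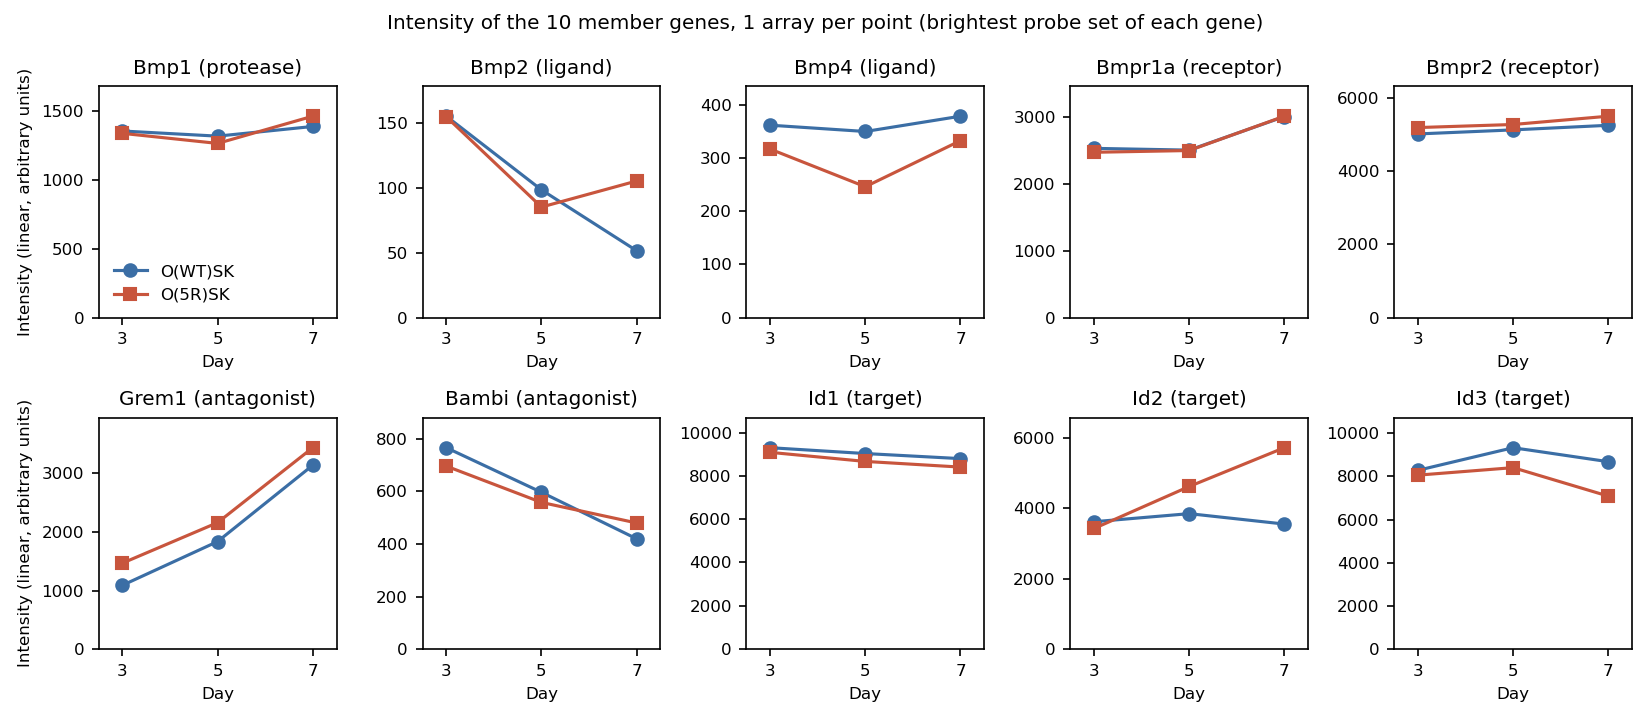
Intensity on a linear scale (vertical axis, arbitrary units, from 0) against day (horizontal axis) for the brightest probe set of each of the 10 genes. Each point is 1 array, circles O(WT)SK and squares O(5R)SK; Grem1 climbs in both combinations, Bambi declines in both, and Id2 separates the combinations on day 7 (3547 against 5714).

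**Figure D2:**
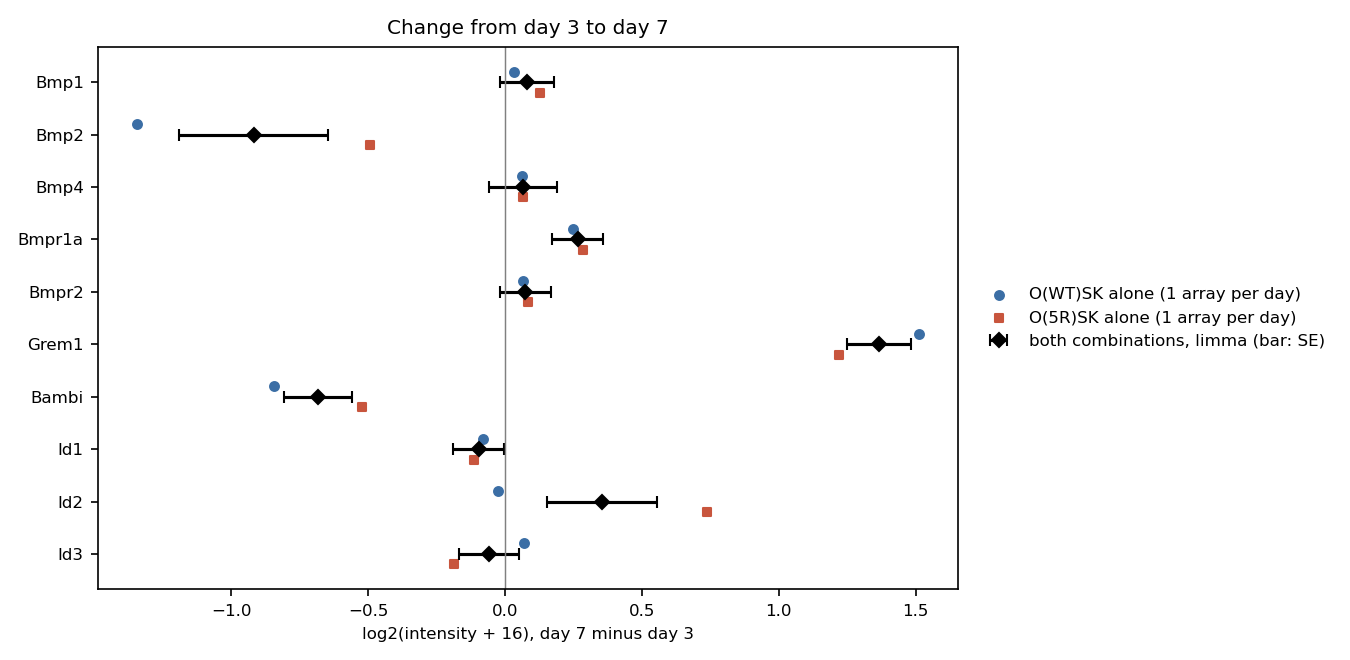
Difference between day 7 and day 3 in log2(intensity + 16) for each gene. Circles and squares are the single-array differences within O(WT)SK and O(5R)SK, diamonds are the limma estimates over both with their SE; Grem1 lies at 1.37, Bambi at -0.68 and Bmp2 at -0.92, and the 2 points of Id2 lie on opposite sides of 0.

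Bmp1 encodes a secreted metalloproteinase that, despite its name, is no BMP ligand. It trims procollagens and cleaves chordin, a BMP antagonist. Its brightest probe set read 1356, 1319 and 1389 in O(WT)SK on days 3, 5 and 7, and 1339, 1266 and 1464 in O(5R)SK. These values form a narrow band in which the combinations overlap. The day 7 against day 3 difference was 0.08 (SE 0.0984, adjusted p = 0.622 by limma), with a 95% interval of -0.18 to 0.34. A second probe set above the filter read between 250 and 320, and the third, below it, between 3.13 and 20.4.

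The ligand genes differed in course. BMP2 and BMP4 are close relatives that signal through the same receptors. Bmp2 read 155, 98.5 and 51.6 in O(WT)SK and 155, 85.3 and 105 in O(5R)SK. It was highest on day 3 in both combinations and lowest on the O(WT)SK array of day 7. The day 7 against day 3 difference was -0.92 (SE 0.271), a level 1.89 times as high on day 3, and missed the threshold with an adjusted p of 0.106 by limma (95% interval -1.63 to -0.20). Within O(WT)SK alone it was -1.34 and within O(5R)SK -0.49.

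Bmp4 read 361, 350 and 378 in O(WT)SK and 316, 246 and 332 in O(5R)SK. Neither combination had a steady course, and each O(5R)SK value was below the O(WT)SK value of the same day. The difference between days 7 and 3 was 0.07 (SE 0.123, adjusted p = 0.758 by limma), with a 95% interval of -0.26 to 0.39.

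Bmpr1a encodes the type I receptor ALK3, which BMP2 and BMP4 both use. Its brightest probe set, 1425492_at, read 2532, 2506 and 3008 in O(WT)SK and 2473, 2499 and 3013 in O(5R)SK. Both day 7 arrays were above all 4 earlier ones, and the combinations were close on each day. The difference of 0.27 (SE 0.0936) had a 95% interval of 0.02 to 0.51 and missed the threshold after adjustment (adjusted p = 0.146 by limma). When each array was set to a common median it was 0.16, while the median of all genes moved from 0.03 to -0.07.

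The other Bmpr1a probe sets did not all follow it. 1425493_at read 399, 629 and 655 in O(WT)SK and 357, 531 and 571 in O(5R)SK, higher on days 5 and 7 than on day 3 in both. When every probe set was tested on its own, among 23234, it was the only Bmpr1a probe set past the threshold for day 7 against day 3 (0.67, SE 0.106, adjusted p = 0.0471 by limma). 1425491_at, with 485 to 625 in O(WT)SK and 438 to 577 in O(5R)SK, had a difference of 0.37 (adjusted p = 0.137), and 1425494_s_at 0.13 (adjusted p = 0.621). The dim 1451729_at read 90.2, 87.5 and 55.2 in O(WT)SK against 59.7, 110 and 142 in O(5R)SK, so that it ran opposite ways in the combinations. Which transcripts each probe set reads was not analysed here.

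Bmpr2 encodes the type II receptor that pairs with BMPR1A. Its brightest probe set, 1434310_at, read 5021, 5132 and 5258 in O(WT)SK and 5196, 5280 and 5506 in O(5R)SK, the narrowest range of the 10 genes on the log2 scale (0.13). The values rank by day within each combination, but the whole range is small. The difference was 0.07 (SE 0.0934, adjusted p = 0.629 by limma), with a 95% interval of -0.17 to 0.32. At a common median it was -0.03. The 2 dimmer Bmpr2 probe sets had no shared course with it: 1419616_at was lowest on the O(WT)SK array of day 7 (132) and highest on the O(5R)SK array of day 5 (240), and 1441652_at spanned 30.1 to 72.4.

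**Figure D3:**
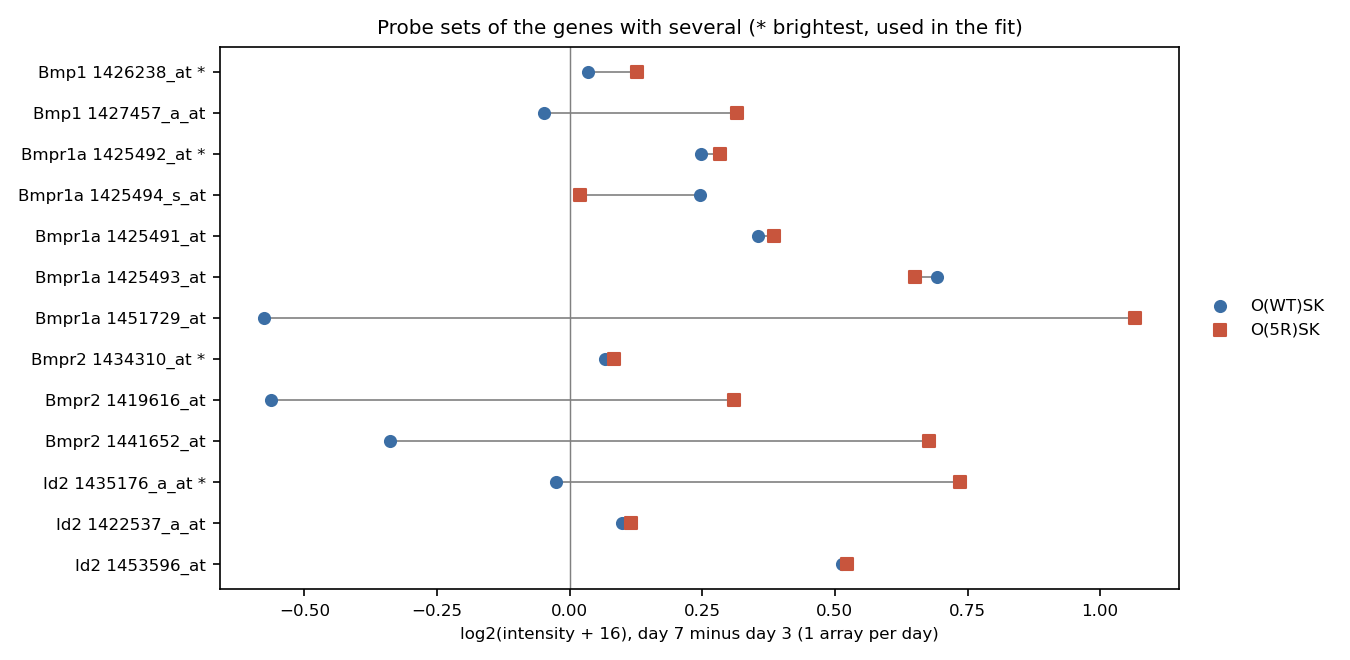
Difference between day 7 and day 3 in log2(intensity + 16) for the 13 probe sets above the filter of the 4 genes with several, circles O(WT)SK and squares O(5R)SK, 1 array per day, with a line joining the combinations. A star marks the brightest probe set of a gene; the long lines belong to Bmpr1a 1451729_at (-0.58 and 1.07), Bmpr2 1441652_at (-0.34 and 0.68) and 1419616_at (-0.56 and 0.31), and Id2 1435176_a_at (-0.03 and 0.74).

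Grem1 encodes gremlin 1, a secreted protein that binds BMP2 and BMP4 and keeps them from their receptors. It read 1090, 1837 and 3141 in O(WT)SK and 1469, 2161 and 3441 in O(5R)SK. Both combinations climbed at each step, and the days do not overlap: the highest day 3 value is below the lowest day 5 value, and the highest day 5 value below the lowest day 7 value. Day 7 exceeded day 3 by 1.37 on the log2 scale (SE 0.116), which is 2.58-fold, with an adjusted p of 0.0117 by limma and a 95% interval of 1.06 to 1.67. Within O(WT)SK the change was 2.85-fold and within O(5R)SK 2.33-fold. Without the filter on dim genes, which raises the number of genes tested to 18193, the adjusted p was 0.0695.

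Bambi encodes a membrane protein built like a type I receptor without the kinase domain, which acts as a decoy that dampens BMP and TGF-beta signalling. It read 767, 597 and 420 in O(WT)SK and 697, 558 and 480 in O(5R)SK. Both combinations declined at each step, with no overlap between days. Bambi was 1.61-fold higher on day 3 than on day 7, a log2 difference of -0.68 (SE 0.124, adjusted p = 0.0418 by limma, 95% interval -1.01 to -0.36). The call is near the threshold: the adjusted p was 0.0523 with a pseudocount of 4, 0.129 without the filter, 0.0659 with every probe set tested alone and 0.0533 without either day 5 array. The 2 antagonist genes thus changed in opposite directions over the same days. Cell type markers went both ways by the same test, beside 3.68% of all genes lower and 6.52% higher. Lower on day 7 were 5 of the 8 macrophage markers and 3 of the 5 smooth muscle markers (Lmod1, Myh11 and Cnn1, by -2.10, -1.16 and -1.06). So were 2 of the 10 fibroblast markers (Thy1 and Postn, by -0.71 and -0.65), of which 5 had positive differences. Higher were 2 of the 5 epithelial markers tested (Cdh1 and Krt8, by 1.69 and 1.18). So was 1 of the 3 bone and cartilage markers tested (Col2a1, by 1.20). The part of these changes in the Bambi and Bmp2 values was not tested.

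The Id genes encode helix-loop-helix proteins that lack a DNA-binding region and hold E proteins off DNA, and in many cells they answer directly to BMP-activated SMADs. Id1 read 9300, 9031 and 8797 in O(WT)SK and 9085, 8666 and 8405 in O(5R)SK. It was a little lower on each later day in both combinations, over a range of 0.15 on the log2 scale. The difference of day 7 from day 3 was -0.10 (SE 0.0935, adjusted p = 0.534 by limma), and its 95% interval was -0.34 to 0.15.

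Id3 read 8284, 9331 and 8683 in O(WT)SK and 8060, 8407 and 7089 in O(5R)SK. Day 5 was highest in each, and the O(5R)SK array of day 7 was lowest of all. The difference was -0.06 (SE 0.11, adjusted p = 0.757 by limma, 95% interval -0.35 to 0.23), with 0.07 in O(WT)SK and -0.18 in O(5R)SK. Id1 and Id3 lie among the brightest 5% of the genes tested. Over those 632 genes the median day 7 minus day 3 difference was 0.00 in O(WT)SK and -0.18 in O(5R)SK, against 0.03 in each over all genes. The part of that shift in the Id1 and Id3 values was not tested.

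Id2 gave different answers by probe set. The brightest, 1435176_a_at, read 3614, 3843 and 3547 in O(WT)SK and 3422, 4614 and 5714 in O(5R)SK. It stayed in a narrow band in the former and was higher on each later day in the latter. The day 7 against day 3 difference over both was 0.36 (SE 0.201, adjusted p = 0.302 by limma), composed of -0.03 in O(WT)SK and 0.74 in O(5R)SK.

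A second Id2 probe set of similar brightness, 1422537_a_at, read 3259, 3810 and 3493 in O(WT)SK and 3186, 3731 and 3454 in O(5R)SK. The combinations run in parallel on it, highest on day 5 in both, with differences between days 7 and 3 of 0.10 and 0.12. The dim 1453596_at read 106, 215 and 158 in O(WT)SK and 105, 158 and 158 in O(5R)SK, again with like differences of 0.51 and 0.52. On day 5 the O(5R)SK value of 1453596_at was the lower one, by a log2 difference of -0.41. In the change from day 3 to day 7, the combinations thus diverge on 1 of the 3 Id2 probe sets.

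The question of whether the OCT4 versions differed was asked with the combinations matched by day, 3 arrays against 3. None of the 10 genes was called, beside 0% of the 12622 tested: limma called 0 genes. At an unadjusted p under 0.05 there were 2 of the 10, Bmp4 and Grem1, against 9.35% of all genes (1180). The median difference was -0.01 over the 10 genes and -0.01 over all. For 5 of the 10 (Bmp4, Bmpr2, Grem1, Id1 and Id3) the sign was the same on all 3 days, against 33.8% of all genes.

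Bmp4 was lower in O(5R)SK on every day, by log2 differences of -0.18, -0.48 and -0.18 on days 3, 5 and 7. The mean was -0.28 (SE 0.101), with a 95% interval of -0.55 to -0.02 and an adjusted p of 0.514 by limma. Grem1 was higher in O(5R)SK on every day, by 0.42, 0.23 and 0.13, the gap being widest on day 3. Its mean was 0.26 (SE 0.0949), with an interval of 0.01 to 0.51 and an adjusted p of 0.516. Neither difference therefore passed the test after adjustment.

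Bmp2 differed by 0.00 on day 3, -0.18 on day 5 and 0.84 on day 7. Its mean of 0.22 (SE 0.222, adjusted p = 0.752 by limma) rested on the day 7 arrays: without either of them it was -0.09. Id2 differed by -0.08, 0.26 and 0.69, with a mean of 0.29 (SE 0.164, adjusted p = 0.642). On its second probe set the mean was -0.03, and over the mean of its probe sets 0.04.

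Id1 differed by -0.03, -0.06 and -0.07, with a mean of -0.05 (SE 0.0763, adjusted p = 0.828 by limma) and an interval of -0.25 to 0.15. Id3 differed by -0.04, -0.15 and -0.29, with a mean of -0.16 (SE 0.09, adjusted p = 0.640) and an interval of -0.40 to 0.08. Both were lower in O(5R)SK on every day. The brightest 5% of genes had medians of 0.02, -0.07 and -0.17 on the same days, against 0.00, -0.01 and -0.02 over all genes. The part of that in the Id1 and Id3 differences was not tested.

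The remaining 4 genes had mean differences close to 0. Bmp1 stood at 0.00 (interval -0.21 to 0.21), Bmpr1a at -0.01 (-0.21 to 0.19), Bmpr2 at 0.05 (-0.15 to 0.25) and Bambi at -0.01 (-0.28 to 0.25). The intervals bound these differences but do not show that the combinations are equal.

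**Figure D4:**
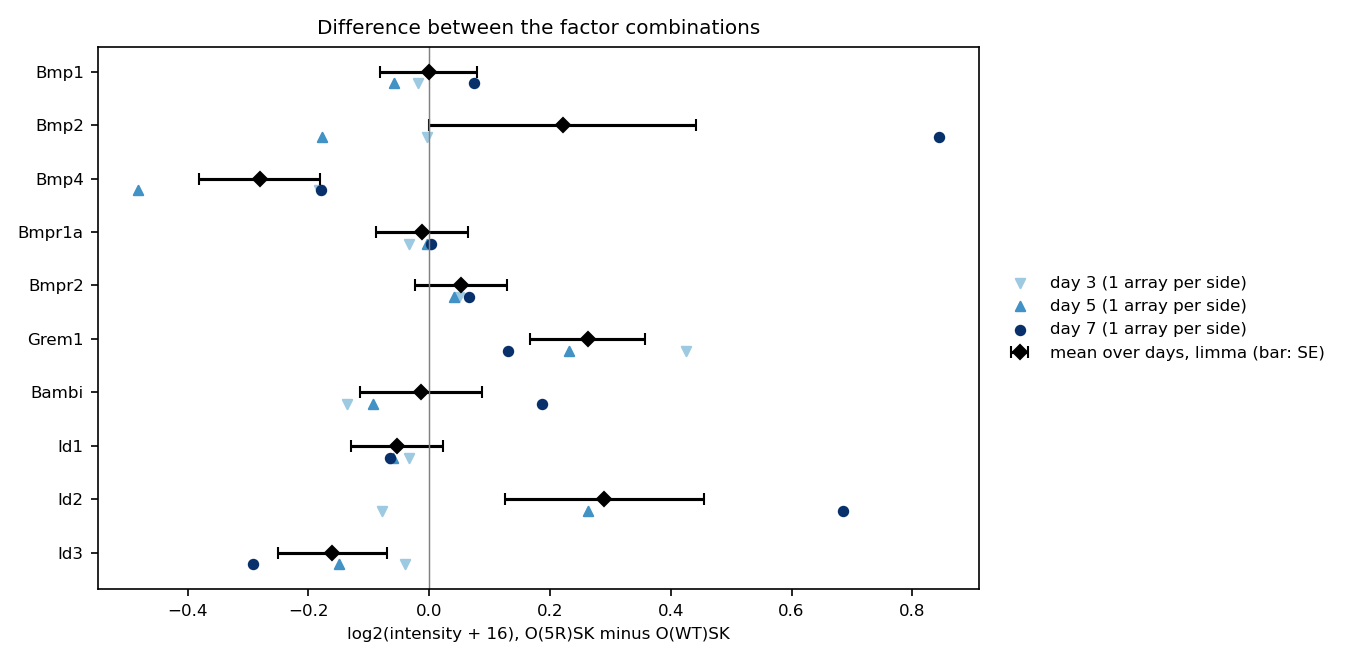
Difference between the combinations, O(5R)SK minus O(WT)SK, in log2(intensity + 16) for each gene. Small symbols are the differences on days 3, 5 and 7 (1 array per side), diamonds the limma means over the days with their SE; Bmp4 is left of 0 and Grem1 right of 0 on all 3 days, and Bmp2 and Id2 reach 0.84 and 0.69 on day 7.

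Whether the course over time differed between the OCT4 versions was tested as the difference of slopes, O(5R)SK minus O(WT)SK, given per 4 days. The spread behind this test is the departure from a straight line within each combination. None of the 10 genes was called, beside 0% of all: limma called 0 of 12622. At an unadjusted p under 0.05 there was 1 of the 10, Id2, against 7.52% of all genes (949). Id2 had a difference of 0.76 (SE 0.189, 95% interval 0.25 to 1.28, adjusted p = 0.647). Tested on their own, its probe sets gave 0.76, 0.02 and 0.01 (adjusted p of 0.622, 0.990 and 0.998).

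Bmp2 had a slope difference of 0.85 (SE 0.442, 95% interval -0.35 to 2.05, adjusted p = 0.719 by limma). Single arrays decided it: it was -0.17 without the O(5R)SK array of day 7 and 1.86 without that of day 3. Bambi stood at 0.32, Grem1 at -0.29 and Id3 at -0.25, each with an interval that includes 0. The intervals of Bmp1, Bmp4, Bmpr1a, Bmpr2 and Id1 also include 0. At a common median the median slope difference of all genes moved from -0.01 to -0.14.

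Some genes ran close to Grem1 across the 6 arrays. Among tested genes with a log2 range of at least 1, the highest Pearson correlations with it belonged to C1ra (0.999) and C1s1 (0.998), which encode proteases of the first complement component, and Calml4 (0.998), a calmodulin-like gene. C1ra read 236, 459 and 957 in O(WT)SK and 344, 610 and 1083 in O(5R)SK. That is the order of the 6 arrays seen for Grem1. Calml4 read 23.4, 43.0 and 80.7 in O(WT)SK and 33.0, 54.2 and 91.9 in O(5R)SK. Its day 3 mean lay below the brightness filter, so it was tested only through its higher later values. These genes were not alone: 131 genes with a log2 range of at least 1 had a value above 0.95. How many genes had that range was not counted here.

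With Bmp2, 8 genes with a log2 range of at least 1 had a value above 0.95. They were led by Pitpnm2 (0.986), Cntfr (0.976), which encodes the ciliary neurotrophic factor receptor alpha chain, and Krt12 (0.974), a keratin gene. Pitpnm2 read 204, 153 and 96.8 in O(WT)SK and 215, 150 and 172 in O(5R)SK, lowest like Bmp2 on the O(WT)SK array of day 7. Krt12 read 97.0, 56.7 and 14.8 in O(WT)SK and 123, 38.8 and 43.1 in O(5R)SK. Its day 7 mean lay below the brightness filter, so it was tested only through its higher earlier values. All these values describe 6 arrays that share the day of sampling.

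The wider pathway was followed in 80 further genes in 7 lists, of which 74 were on the array and 64 bright enough to test. By day 7, 9 of the 64 had risen from day 3 and 1 had fallen, beside 6.52% and 3.68% of all genes, and the median difference was 0.04. Of the 9, Msx1 and Dlx3 had a day 3 mean below the brightness filter and were tested only through their higher later values, which leaves 7 higher without them. Between the OCT4 versions, and for the difference of slopes, limma called 0 of the 64. When any 1 of the day 3 or day 7 arrays was left out, and without the filter, 0 were called. With every probe set tested alone, counting the brightest of each gene, 4 were higher and 0 lower. That setting is left out where alternatives that kept a single pathway gene's call are counted below. So is any setting whose filter the gene failed. At a common median 6 were higher and 4 lower, and after quantile normalization 5 and 2. Over all genes the same settings gave 578 higher and 593 lower, and 646 and 508, where the counts as first normalised were 823 and 464.

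The list of secreted BMP antagonists and modulators, the group of Grem1, had 2 of 15 tested genes higher and 1 lower on day 7. Because it also holds modulators, its counts are not those of antagonists alone. Over all genes 6.52% were higher and 3.68% lower. Sostdc1, which encodes a BMP and Wnt inhibitor, read 121, 262 and 613 in O(WT)SK and 106, 219 and 451 in O(5R)SK. Day 7 exceeded day 3 by 2.07 (SE 0.112, adjusted p = 0.00765 by limma), a 4.20-fold rise. As with Grem1, both combinations climbed at each step.

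Sost, the gene of sclerostin, read 50.0, 121 and 89.6 in O(WT)SK and 73.4, 224 and 240.0 in O(5R)SK. It rose by 1.10 with an adjusted p of 0.0495 by limma, at the edge of the threshold, and kept its call in 3 of 7 alternatives that used all arrays. Crim1, which encodes a membrane protein that binds BMPs, read 2358, 1569 and 1544 in O(WT)SK and 1911, 1431 and 1191 in O(5R)SK. It fell by 0.64 on the log2 scale (adjusted p = 0.0373 by limma), so this list too held genes of both directions. The Crim1 call was kept in 6 of 8 alternatives that used all arrays, with differences of -0.74 to -0.36. With every probe set tested alone, which is not among those 8, it was lost. With 1 array left out the Crim1 difference was -0.72 to -0.56, and the call was lost each time. Positive differences were found for 12 of the 15, with a median of 0.36, against 53.4% of all genes, and for 12 of the 15 also at a common median and after quantile normalization, against 41.5% and 48.9%. Vwc2, 1 of the 12, had a day 3 mean below the filter. Noggin and chordin, the best known of the antagonists, did not pass: Nog stood at -0.38 (adjusted p = 0.404) and Chrd at 0.59 (adjusted p = 0.0579).

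Of the 13 tested BMP target genes for transcription factors, 4 were higher on day 7 and 0 lower by limma. Over all genes these shares were 6.52% and 3.68%. Of the 4, 2 passed the brightness filter only through the later days. Of the others, Zfp423, whose protein is a SMAD partner, read 52.1, 115 and 177 in O(WT)SK and 60.8, 70.2 and 167 in O(5R)SK, a rise of 1.38 (adjusted p = 0.0291 by limma). Tbx2, a T-box gene, read 120.0, 204 and 300.3 against 149, 187 and 342, a rise of 1.17 (adjusted p = 0.0179). Both were highest on day 7 in each combination.

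Msx1, a homeobox gene, read 29.5, 53.6 and 73.6 in O(WT)SK and 33.5, 107 and 99.3 in O(5R)SK, a difference of 1.10 (adjusted p = 0.0386 by limma). The fourth, Dlx3, also a homeobox gene and chosen for mention after its values were seen, had a difference of 0.50 with an adjusted p of 0.0496 and kept its call in 1 of 7 alternatives that used all arrays. For both, the day 3 mean lay below the filter, so that passing it required the higher values of days 5 and 7, and neither call stands as support. The list as a whole had no common direction, with 6 positive and 7 negative differences and a median of -0.07. Id4, the Id gene outside the 10, read between 3087 and 3623 and had a difference of -0.07 (adjusted p = 0.664).

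Among the 9 further ligand genes tested, Bmp8a alone rose, by 0.60 (adjusted p = 0.0438 by limma), from 76.6 to 113 in O(WT)SK and from 55.7 to 102 in O(5R)SK between days 3 and 7. Its call was kept in 2 of 7 alternatives that used all arrays. Among the 9 further receptors and co-receptors, Eng, which encodes endoglin, alone rose, by 0.55 (adjusted p = 0.0481), and kept its call in 4 of 8. At a common median 0 of these receptors were higher and 1 lower. As first normalised, 1 of 9 genes was higher in each of the 2 lists, beside 6.52% of all genes.

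Of the 9 SMADs and SMAD regulators, 0 were called by limma, beside 10.2% of all genes. The largest difference of the 9 was that of Skil, a SMAD corepressor gene, at -0.27 (adjusted p = 0.162 by limma). Differences were negative for 7 of the 9, with a median of -0.16, against 46.6% of all genes. A common median lowers all genes alike, and under it 9 of 9 and 58.5% of all genes were negative. Smad1, Smad5, Smad6 and Smad7 stood at -0.22, 0.09, 0.09 and -0.11.

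Of the 6 genes for BMP1-type proteases and their partners, Pcsk6, a proprotein convertase that matures TGF-beta family ligands, rose by 0.90 (adjusted p = 0.0268 by limma). It read 556, 815 and 924 in O(WT)SK and 397, 713 and 857 in O(5R)SK, higher on each later day in both. This made 1 of the 6 higher, beside 6.52% of all genes. The 3 genes of E proteins, the partners of the Id proteins, gave 0 calls, beside 10.2% of all genes. Tcf4 had the largest difference of the 3, 0.51 (adjusted p = 0.104 by limma), and Tcf3 and Tcf12 stood at -0.10 and -0.06.

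**Figure D5:**
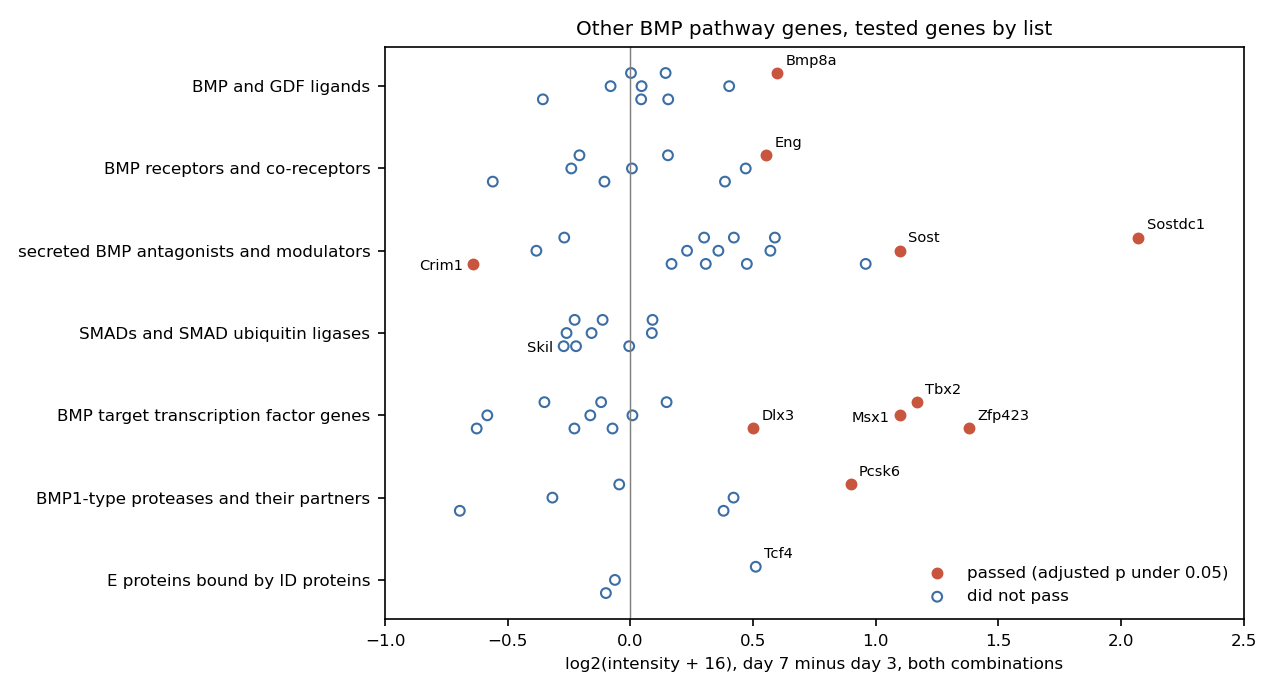
Difference between day 7 and day 3 in log2(intensity + 16), limma estimates over both combinations, for the 64 tested genes of the 7 pathway lists (1 row per list, points spread vertically only for legibility). Filled points passed the adjusted threshold of 0.05; Sostdc1 lies farthest right at 2.07, and Crim1 is the only filled point left of 0.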

How the data were processed

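The 6 arrays carry Affymetrix probe set intensities on a linear scale, as deposited by the authors. The submitters' processing notes name affy. How it summarised probes and corrected background, and its version, is not given in the sources used here, nor is the scaling. The array trimmed means are equal, so the intensities were used without further scaling. Of 45101 probe sets, 34958 named 1 gene, 932 several and 9211 none in the platform annotation, and 34754 of the first were found in RefSeq, with 0 symbols changed. The 64 control probe sets were left out, and 0 value columns were unused.

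A gene was represented by its probe set with the highest mean log2(intensity + 16) and tested if that mean exceeded the 40th percentile of all probe sets (5.63, an intensity of 33.5), which left 12622 genes. limma 3.58.1 in R 4.3.3 fitted combination and day (2 residual degrees of freedom) for the differences between combinations and between days 7 and 3, and combination, day and their product for the slopes. eBayes moderated the variances, with Benjamini-Hochberg adjustment over all genes tested. The fits were first run on simulated data with independent noise. That run required only that added differences were recovered, so it does not bear on the rate of false calls. Figures were drawn with matplotlib 3.10.9 and tables joined with pandas 2.3.3 and, in R, data.table (version 1.17.8).

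The 10 genes and the pathway and marker lists were chosen with earlier results of these data known. From each pathway list the text names up to 3 genes past the threshold with the largest difference, or else the 1 with the largest. Genes most alike were the 3 with the highest correlation for each of the 2 members with the widest range. Other genes were named after their values were seen. Alternatives tried were pseudocounts of 4 and 64, no filter, a 60th percentile filter, averaging probe sets within genes, every probe set tested alone, quantile normalization, a common median, a trended robust prior and leaving out each array.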

Additional observations from a re-analysis of the deposited data

Results flagged for a closer look

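On 3 dimmer probe sets of the 10 genes that lay above the brightness filter, both later arrays lay on one side of day 3 in O(WT)SK and on the other in O(5R)SK. All are on the log2(intensity + 16) scale, with 1 array per combination and day. Bmp1 1427457_a_at, with intensities of 250 to 320, changed from day 3 to day 7 by -0.049 in O(WT)SK and by 0.31 in O(5R)SK. Bmpr1a 1451729_at changed by -0.58 and by 1.07, and it read 55.2 to 142 over the 6 arrays. Bmpr2 1419616_at changed by -0.56 and by 0.31, within 132 to 240. Another probe set, Bmpr1a 1445413_at, had the same pattern below the filter and was not tested: it read 30.6, 27.1 and 17.8 in O(WT)SK and 19.5, 30.5 and 33.9 in O(5R)SK. With every probe set tested on its own, limma gave slope differences per 4 days of 0.36 for the Bmp1, 1.64 for the Bmpr1a and 0.87 for the Bmpr2 probe set, and adjusted p of 0.780, 0.618 and 0.654. None of the 3 passed the threshold, and the brighter probe sets of the same genes had differences of like sign in both combinations.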

How the results depend on the processing

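Of the 10 genes, 2 were called for day 7 against day 3; 1 was with a pseudocount of 4, 0 without the filter, 1 with every probe set tested alone (Grem1, counting the brightest probe set of each gene; Bmpr1a 1425493_at was called as well), 4 with a trended robust prior (which added Bmp2 and Bmpr1a), and 0 to 1 with an array left out. The other comparisons kept 0 of the 10 under every alternative run. Over all genes the 1287 calls for day 7 against day 3 became 1971 with a pseudocount of 64, 2202 with the 60th percentile filter, 800 over the mean of probe sets, 2846 with the trended prior, 0 without the filter and 0 without any 1 of the day 3 or day 7 arrays. Between combinations 2 genes were called with a pseudocount of 64, 27 with the 60th percentile filter and 82 with the trended prior, which also called 2 slope differences. The values that changed sign were all uncalled. Between combinations, the mean of probe sets gave 0.013 for Bmp1 and 0.0060 for Bmpr1a, quantile normalization 0.00092 for Bmp1, and leaving out an array -0.038 to 0.028 for Bmp1, -0.11 to 0.047 for Bambi and -0.091 to 0.42 for Bmp2. For day 7 against day 3, quantile normalization gave -0.027 for Bmp4, a common median -0.036 for Bmp4, -0.020 for Bmp1 and -0.026 for Bmpr2, and leaving out an array -0.012 to 0.14 for Bmp4 and -0.16 to 0.040 for Id3. For the slopes, quantile normalization gave -0.088 for Bmp4 and 0.055 for Id1, and a common median -0.035 for Bmp1, -0.12 for Bmp4, -0.091 for Bmpr1a and -0.11 for Bmpr2. Slopes without an array ran from -0.19 to 0.38 for Bmp1, -0.17 to 1.86 for Bmp2, -0.75 to 0.76 for Bmp4, -0.24 to 0.31 for Bmpr1a, -0.020 to 0.055 for Bmpr2 and -0.56 to 0.054 for Id3. The causes were not tested.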

Other observations

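Among the pathway genes the widest gap between the OCT4 versions was that of Gdf5, a growth factor gene of joint and cartilage, named here after its values were seen. It read 96.7, 89.2 and 81.8 in O(WT)SK on days 3, 5 and 7 and 208, 219 and 243 in O(5R)SK. Every O(5R)SK array was above every O(WT)SK array. The mean difference was 1.19 on the log2(intensity + 16) scale (SE 0.11) and did not pass the test (adjusted p = 0.217 by limma). Of the 3 bone and cartilage markers tested, Col2a1, the type II collagen gene, and Sox9, a cartilage regulator, stood at -0.27 between the versions. Neither passed the test (adjusted p of 0.456 and 0.543 by limma). Alpl, alkaline phosphatase, stood at 1.16. It passed the brightness filter only through its O(5R)SK arrays, so its direction was not counted as support. From day 3 to day 7, Col2a1 rose by 1.20 (SE 0.0934, adjusted p = 0.0112 by limma), from 251 to 597 in O(WT)SK and from 205 to 489 in O(5R)SK. Sox9 had a difference of -0.04 (adjusted p = 0.845) and Alpl of 0.71 (adjusted p = 0.119).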
